A study of Rattus norvegicus with 12 samples.

Results

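The adrenergic receptors, the stimulatory G protein subunit and the adenylyl cyclases considered here are the 6 genes Adrb1, Adra1a, Adra1b, Adcy5, Adcy6 and Gnas. They were proposed with earlier results of these data known and taken from the deposited expression table by symbol, and they fill 7 of its 17602 entries because Gnas is listed under 2 Ensembl identifiers. Gene expression was measured by RNA sequencing of cardiac muscle from ZSF1 rats in a study of nicotinamide, a precursor of NAD, in heart failure with preserved ejection fraction. The table holds 12 samples in 3 groups of 4. The lean group holds lean ZSF1 control hearts, and the obese group holds hearts of ZSF1 rats labelled as obese through diet. The third group, obese+NAM, holds hearts of rats with the same obese label that drank water with 24 mM nicotinamide (NAM) from 8 to 20 weeks of age. All groups share the ZSF1 strain, conventional housing, free access to food and water, and a light and dark cycle of 12 hours each. As background, ZSF1 obese rats are hybrids that carry defective leptin receptor alleles on a partly hypertensive background. The lean rats share the strain. The contrast with them cannot separate obesity from diabetes, leptin receptor alleles or diet, which may differ along with it. The study describes 4 myocardial samples per group and the labels do not state that each came from its own animal, so p-values measure the spread between these samples.

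As background, noradrenaline and adrenaline act on the heart through 2 kinds of receptor. Beta receptors couple to the stimulatory G protein, whose alpha subunit Gnas encodes, and this subunit switches on adenylyl cyclases, which make cyclic AMP. Cyclic AMP activates protein kinase A, which phosphorylates phospholamban, the ryanodine receptor, troponin I and the calcium channel and so speeds contraction and relaxation. Alpha-1 receptors couple instead to Gq, phospholipase C and protein kinase C, and are known in heart muscle for effects on growth and contractile force.

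The upstream sequences of Adrb1, the main beta receptor of heart muscle, and Adcy5, a leading cardiac cyclase, are shown because Adrb1 was the lowest of the 6 genes in these hearts and Adcy5 the only one called in 2 comparisons. Each is the 250 bases before the annotated start, 5′ to 3′ on the strand of the gene, from RefSeq's promoter table for the build GRCr8, at chr1:265776853-265777102 (plus strand) for Adrb1 and at chr11:79123344-79123593 (minus strand) for Adcy5. The table as used here held windows for 4 of the 6 symbols and none for Adra1a or Adcy6. Capitals mark TGACG, the core of the cyclic AMP response element, in Adrb1 and the GC box GGGCGG, read as CCGCCC on the strand shown, in Adcy5.
Adrb1: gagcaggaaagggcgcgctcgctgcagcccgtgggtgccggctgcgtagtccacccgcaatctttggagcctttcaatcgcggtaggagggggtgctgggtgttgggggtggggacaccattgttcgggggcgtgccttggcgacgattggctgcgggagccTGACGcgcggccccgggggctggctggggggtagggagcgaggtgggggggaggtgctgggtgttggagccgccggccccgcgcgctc
Adcy5: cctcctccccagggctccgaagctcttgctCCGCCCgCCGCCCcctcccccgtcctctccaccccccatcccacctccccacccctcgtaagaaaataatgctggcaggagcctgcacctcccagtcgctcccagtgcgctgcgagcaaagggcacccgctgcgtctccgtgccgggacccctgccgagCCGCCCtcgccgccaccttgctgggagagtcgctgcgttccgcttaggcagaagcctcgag
Both windows are rich in G and C (72% in Adrb1 and 70% in Adcy5). The motifs searched on both strands were the full cyclic AMP response element TGACGTCA, its core TGACG, which overlaps it, the TATA box TATAAA and the GC box GGGCGG. The Adrb1 window holds 1 such core, as 18.2% of all 33469 windows of this length do, and the Adcy5 window holds 3 GC boxes, a motif present in 30.5% of windows. Neither window holds the full element, found in 1.59% of windows, or the TATA box, found in 12.9%. These matches describe letters and are not evidence of binding.

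Levels are given as deposited in TPM, a measure of transcript abundance corrected for gene length that adds up to the same total in every sample. TPM hold no read counts, and how deeply each sample was sequenced is unknown. Mitochondrially encoded genes took 66.2% to 70.4% of the TPM in lean, 74.6% to 75.5% in obese and 69.9% to 73.8% in obese+NAM hearts, so the share left to all other genes was lowest in the obese group. The main comparisons are therefore given as deposited and again after the samples were rescaled by the median of ratios. This factor brings the typical gene to the same level in all samples. Where no rescaled value is printed, a level, change or call is as deposited. These factors were 1.03 to 1.09 in lean, 0.841 to 0.928 in obese and 0.994 to 1.17 in obese+NAM samples. The rescaling moved the median log2 change of the 10526 genes tested from -0.20 to 0.00 for obese against lean, from 0.25 to -0.01 for obese+NAM against obese and from 0.05 to 0.00 for obese+NAM against lean. Log2 changes are differences of group means of log2(TPM + 1), which understate changes of low genes, and a gene was called where limma gave a Benjamini-Hochberg adjusted p under 0.05. The labelled tissue was borne out by its markers: 7 of 8 cardiomyocyte markers were in the table, all at 1 TPM or more in every sample, and summed to 16319 to 19096 TPM in lean, 11647 to 13298 in obese and 13882 to 15596 in obese+NAM hearts. In whole tissue, fewer cells of a type and less RNA per cell cannot be told apart.

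The 6 genes spanned a wide range of levels. Gnas was by far the highest at a mean of 101 TPM over the 12 samples, followed by Adcy5 at 10.3 TPM, Adcy6 at 7.22 TPM, Adra1b at 3.78 TPM and Adra1a at 3.06 TPM. Adrb1 was the lowest at 0.147 TPM and stayed below 1 TPM in all 12 samples. The other Gnas entry, at a mean of 0.432 TPM, was also below 1 TPM in all 12. The remaining 5 genes were at or above 1 TPM in every sample and entered the test. Adcy5 and Adcy6 had overlapping ranges over the 12 samples, as did Adra1b and Adra1a, while Gnas overlapped with none.

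**Figure D1:**
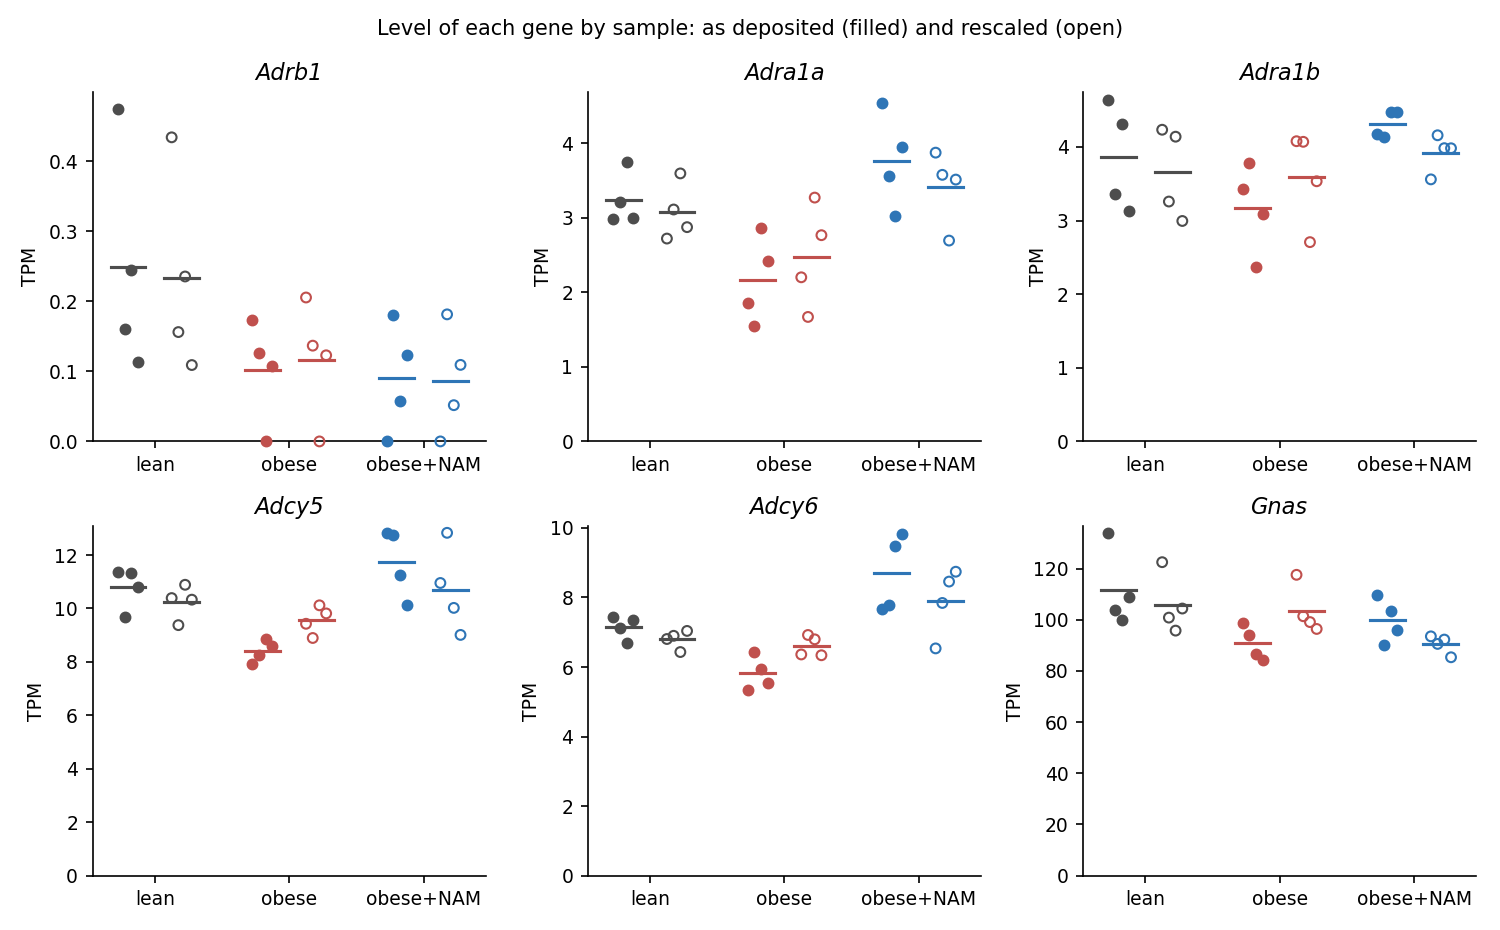
Level of each gene in TPM (vertical axis, linear, from 0) in the 4 samples of each group, as deposited (filled points) and after median-of-ratios rescaling (open points); bars are group means. As deposited the obese points of Adcy5 lie at 7.93 to 8.86 TPM, below every lean and obese+NAM point, and after rescaling the groups overlap.

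The obese hearts held less of most of these transcripts than the lean hearts as deposited, and the obese+NAM hearts held more than the obese ones. Of the 5 genes tested, 1 was called lower in obese than in lean hearts (Adcy5), where 16.5% of all genes tested were called lower. Obese+NAM against obese hearts gave 3 called higher (Adra1a, Adcy5 and Adcy6), where 28.8% of all genes were. Obese+NAM against lean hearts gave 0 calls among the 5, where 1.83% of all genes were called in either direction, and 1 of the 5 (Adcy6) had an unadjusted p under 0.05. After rescaling 0 of the 5 were called by limma in any of the 3 comparisons, against 1.34%, 0.713% and 2.36% of all genes. At an unadjusted p under 0.05 after rescaling there were 0 for obese against lean, 3 for obese+NAM against obese (Adra1a and Adcy6 higher, Gnas lower) and 1 for obese+NAM against lean (Gnas lower). The median log2 change of the 5 as deposited was -0.29 for obese against lean, 0.43 for obese+NAM against obese and 0.14 for obese+NAM against lean, and after rescaling -0.04, 0.14 and 0.09. The share of 1 in 5 called lower in obese hearts is near that among all genes, and the comparisons that involve the obese group share its 4 samples.

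**Figure D2:**
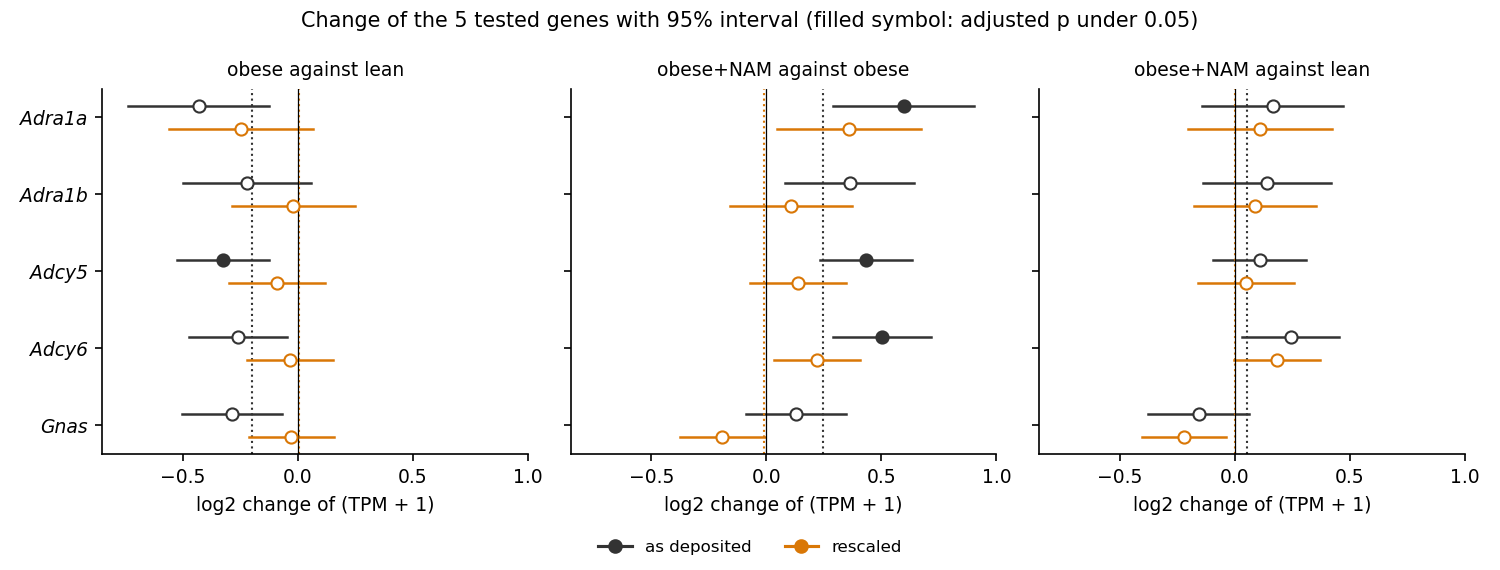
Log2 change of (TPM + 1) with its 95% interval for the 5 genes tested in the 3 comparisons, as deposited (black) and rescaled (orange); filled symbols passed an adjusted p of 0.05 and dotted lines mark the median of all genes. The 4 filled symbols are all as deposited: Adcy5 at -0.32 in obese against lean, and Adra1a, Adcy5 and Adcy6 at 0.43 to 0.60 in obese+NAM against obese.

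Adrb1, the beta-1 receptor through which noradrenaline chiefly drives heart rate and force, was barely detected. Its TPM in lean hearts were 0.475, 0.161, 0.245 and 0.114. In obese hearts they were 0.173, 0.127, 0 and 0.108, and in obese+NAM hearts 0, 0.180, 0.0581 and 0.123. Lean replicate 1 was the highest sample, and the 3 groups overlapped. A value listed at 0 in such a table can be a failed estimate, so the 2 zeros (obese replicate 3 and obese+NAM replicate 1) are given as listed. Adrb1 did not pass the filter of at least 1 TPM in 4 samples. In a limma fit without that filter its log2 change for obese against lean was -0.17 (95% interval -0.37 to 0.02, adjusted p = 0.267) as deposited and -0.14 (adjusted p = 0.565) rescaled. For obese+NAM against obese the same fit gave -0.02 (95% interval -0.21 to 0.18, adjusted p = 0.938), and for obese+NAM against lean -0.19 (-0.38 to 0.00, adjusted p = 0.392).

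Adra1a, the alpha-1A receptor that couples to Gq, was lower in obese than in lean hearts without passing the test and rose in obese+NAM against obese hearts as deposited. Its TPM were 2.98, 3.21, 3.75 and 3.0 in lean hearts, 1.85, 1.55, 2.86 and 2.42 in obese hearts, and 4.54, 3.56, 3.03 and 3.95 in obese+NAM hearts. Every obese sample was below every lean and every obese+NAM sample, while the lean and obese+NAM groups overlapped. Obese replicate 3 lay closest to the other groups. Obese+NAM exceeded obese hearts by a log2 change of 0.60 (SE 0.14, limma adjusted p = 0.00987), and the call held in all 12 fits that left out 1 sample (highest adjusted p 0.0339). The obese difference from lean was -0.43 (SE 0.14, adjusted p = 0.0531). That value passed the threshold without obese replicate 3 (-0.53, adjusted p = 0.0347), without obese+NAM replicate 1 (adjusted p just under 0.05) and with a pseudocount of 0.1 (-0.58, adjusted p = 0.0489). After rescaling the difference between obese and lean was -0.25 (95% interval -0.56 to 0.07, adjusted p = 0.434) and that between obese+NAM and obese was 0.36 (0.05 to 0.67, adjusted p = 0.255).

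Adra1b, the alpha-1B receptor, which uses the same effectors, was the more abundant of the pair in 10 of 12 samples. Its TPM were 4.63, 3.36, 4.31 and 3.13 in lean, 3.43, 3.78, 2.37 and 3.09 in obese, and 4.17, 4.13, 4.47 and 4.47 in obese+NAM hearts. The lean and obese samples overlapped, and all 4 obese+NAM samples were above all 4 obese samples. As deposited the log2 change was -0.22 for obese against lean (SE 0.13, limma adjusted p = 0.248) and 0.36 for obese+NAM against obese (SE 0.13, adjusted p = 0.0507). The latter passed the threshold in 3 of the fits that left out 1 sample, without lean replicate 1 (adjusted p = 0.0437), lean replicate 4 (0.0468) or obese replicate 2 (0.0322). After rescaling the values were -0.02 (95% interval -0.29 to 0.25, adjusted p = 0.959) and 0.11 (-0.16 to 0.37, adjusted p = 0.715).

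The ratio of Adra1a to Adra1b within a sample does not depend on the scaling across samples. It was 0.857 ± 0.149 (SD, n = 4) in lean, 0.736 ± 0.351 (n = 4) in obese and 0.877 ± 0.169 (n = 4) in obese+NAM hearts. Obese replicate 3 had the highest ratio of all samples at 1.21 and obese replicate 2 the lowest at 0.411, so the obese group spans the others. Exact two-sided permutation tests of the mean log2 ratio gave p = 0.429 for obese against lean, 0.371 for obese+NAM against obese and 0.886 for obese+NAM against lean, where the smallest p that 4 against 4 samples allow is 0.0286. Adjusted over the 12 ratio tests made here these became 0.686, 0.686 and 0.886.

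Set against Gnas in the same sample, the TPM of Adrb1 were 0.104% to 0.354% in lean, 0% to 0.175% in obese and 0% to 0.20% in obese+NAM hearts. The groups overlapped. A log2 ratio of these genes could be taken only on TPM + 1 because of the zeros, and as Adrb1 stayed below 1 TPM the added 1 outweighs it and the ratio mostly mirrors Gnas, so its tests are not used.

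The other adrenergic receptors analysed were scarce. Adra1d, the alpha-1D receptor of vascular smooth muscle, stayed below 1 TPM, at 0.304 to 0.641 in lean, 0.0689 to 0.295 in obese and 0.0496 to 0.393 in obese+NAM hearts. Its lean and obese samples did not overlap as deposited and overlapped after rescaling (without the filter, limma adjusted p = 0.0637 and 0.243). Among genes that passed the filter, 23.2% were lower in every obese than in every lean sample as deposited. Adra2b and Adra2c, inhibitory alpha-2 receptors, did not exceed 0.192 TPM in any sample, and Adrb3 and Adra2a were not analysed here. The lean and obese samples of Adra2b overlapped as deposited. After rescaling its obese samples (0.112 to 0.228) lay above its lean samples (0.0165 to 0.110). That difference was not called (without the filter, log2 change 0.12, limma adjusted p = 0.385), and the share of all genes with this pattern is not given here.

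Gnas, the stimulatory alpha subunit, was the only one of the 5 genes whose obese+NAM level was lower on average than its lean level on both scales. Its TPM were 134, 104, 99.8 and 109 in lean, 98.9, 94.1, 86.7 and 84.4 in obese, and 110, 90.1, 104 and 95.9 in obese+NAM hearts. Lean replicate 1 was the highest, every obese sample was below every lean sample, and the obese+NAM samples overlapped both groups. As deposited the log2 change was -0.29 for obese against lean (SE 0.10, limma adjusted p = 0.0683), 0.13 for obese+NAM against obese (adjusted p = 0.346) and -0.16 for obese+NAM against lean (adjusted p = 0.468). The first passed the threshold with a filter on a mean of 5 TPM (adjusted p = 0.0451).

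Rescaling turned the direction of Gnas in obese+NAM against obese hearts. The rescaled levels were 123, 101, 95.8 and 104 in lean, 118, 101, 99.1 and 96.4 in obese, and 93.5, 90.6, 92.3 and 85.4 in obese+NAM hearts. All 4 obese+NAM samples were below all 8 others, while lean and obese samples overlapped. The log2 change was -0.19 for obese+NAM against obese (95% interval -0.37 to -0.01, limma adjusted p = 0.301) and -0.22 for obese+NAM against lean (-0.40 to -0.04, adjusted p = 0.207), so neither was called. Of the 5 genes tested Gnas alone lay below without overlap, a pattern shown by 4.3% of all genes against obese and 6.35% against lean. The other Gnas entry, ENSRNOG00000025889.5, lay between 0.115 and 0.971 TPM. No source used here describes how reads were divided between the 2 entries.

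Adcy5 and Adcy6 encode the calcium-inhibited cyclases that predominate in heart muscle, and they carried most adenylyl cyclase transcript in these samples. Adcy5 alone made up 46.8% ± 1.17 (SD, n = 4) of the summed cyclase TPM in lean, 47.4% ± 2.33 in obese and 48.5% ± 5.90 in obese+NAM hearts. Adcy6 made up 31.1% ± 2.21, 32.7% ± 1.25 and 35.8% ± 4.42. The sum over the 10 isoforms was 21.5 to 23.9 TPM in lean, 16.3 to 18.8 in obese and 23.4 to 24.8 in obese+NAM hearts, so the obese samples did not overlap with the others as deposited. This sum was taken on the deposited scale only, and whether the groups stay apart after rescaling is not shown.

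**Figure D3:**
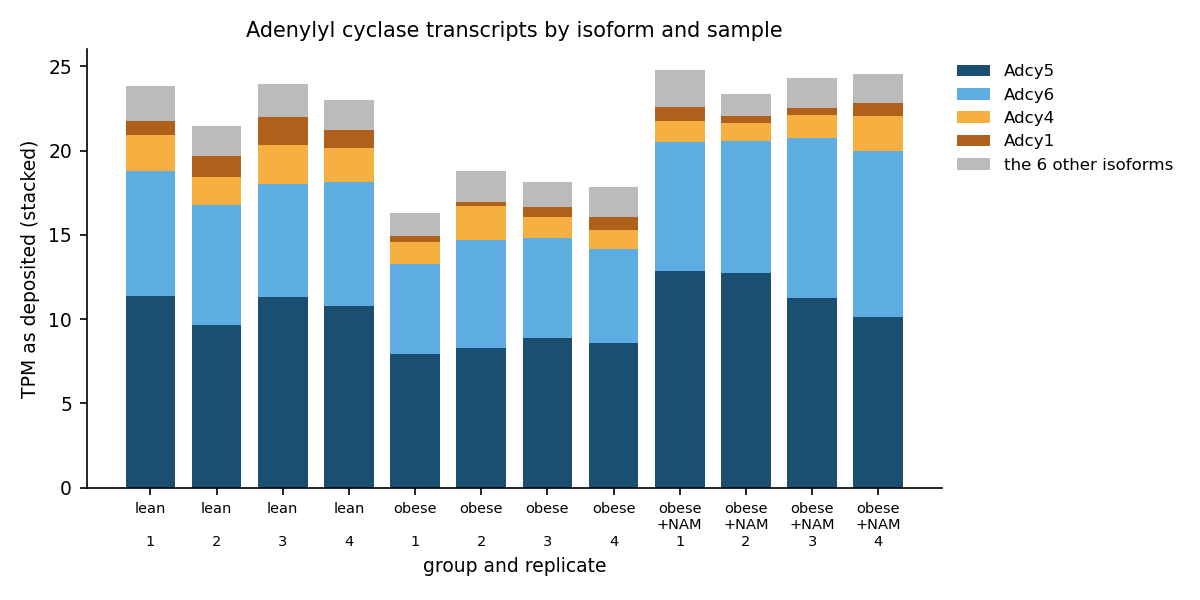
Summed adenylyl cyclase transcripts in each sample as deposited (stacked bars in TPM, from 0), split into Adcy5, Adcy6, Adcy4, Adcy1 and the 6 other isoforms. The 4 obese bars reach 16.3 to 18.8 TPM and the other 8 reach 21.5 to 24.8 TPM, while the Adcy5 part makes up 46.8% to 48.5% on average.

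Adcy5 fell in obese against lean hearts and rose in obese+NAM against obese hearts as deposited. Its TPM were 11.4, 9.67, 11.3 and 10.8 in lean, 7.93, 8.25, 8.86 and 8.59 in obese, and 12.8, 12.8, 11.3 and 10.1 in obese+NAM hearts. All 4 obese samples lay below the other 8, and the lean and obese+NAM groups overlapped. The log2 change was -0.32 for obese against lean (SE 0.09, limma adjusted p = 0.0314). That call ended in 7 of the 12 fits with 1 sample left out (without lean replicates 1, 3 or 4, or any of obese replicates 1 to 4), where the adjusted p reached 0.0836 and the log2 change stayed between -0.37 and -0.30 over the 12 fits. The rise in obese+NAM against obese hearts was 0.43 (SE 0.09, adjusted p = 0.00668), and it kept its call in all 12 such fits (highest adjusted p 0.0237). After rescaling these became -0.09 (95% interval -0.30 to 0.12, adjusted p = 0.70) and 0.14 (-0.07 to 0.35, adjusted p = 0.526), and the groups overlapped.

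Adcy6 was lowest in obese and highest in obese+NAM hearts as deposited, and rose between these groups. Its TPM were 7.45, 7.11, 6.70 and 7.35 in lean, 5.35, 6.42, 5.95 and 5.55 in obese, and 7.66, 7.80, 9.49 and 9.82 in obese+NAM hearts. No 2 groups overlapped: the obese samples were lowest, the lean samples lay between, and the obese+NAM samples were highest, with replicates 3 and 4 above replicates 1 and 2. Obese+NAM exceeded obese hearts by 0.50 (SE 0.10, limma adjusted p = 0.00462, highest with 1 sample left out 0.0168). The difference of obese from lean was -0.26 (SE 0.10, adjusted p = 0.0838) and that of obese+NAM from lean was 0.24 (SE 0.10, adjusted p = 0.233), where 6.94% of all genes had obese+NAM above lean without overlap. After rescaling the obese+NAM samples (6.54 to 8.74) overlapped with the obese (6.34 to 6.92) and lean ones (6.43 to 7.04), and the log2 change against obese was 0.22 (95% interval 0.03 to 0.41, adjusted p = 0.242). The rescaled difference of obese from lean was -0.04 (limma adjusted p = 0.888), and that of obese+NAM from lean was 0.18 (adjusted p = 0.304).

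Counted without overlap as deposited, 4 of the 5 genes (all but Adra1b) were lower in every obese than in every lean sample, where 23.2% of all genes were. Likewise 4 of the 5 (all but Gnas) were higher in every obese+NAM than in every obese sample, where 28% of all genes were. After rescaling the counts were 0 and 0, where 5.31% of all genes were lower and 4.87% higher. Summed cardiomyocyte markers moved alongside as deposited, with the obese range below the lean and obese+NAM ranges. Rescaled, these markers summed to 15669 to 17450 in lean, 13309 to 15810 in obese and 12951 to 13963 in obese+NAM hearts. Endothelial markers (7 of 8 in the table) summed to 58.7 to 76.9, 52.9 to 68.0 and 63.0 to 80.9 TPM, smooth muscle and pericyte markers (9 of 9) to 188 to 202, 142 to 164 and 150 to 229 TPM, and fibroblast markers (7 of 8) to 467 to 508, 395 to 745 and 407 to 522 TPM in lean, obese and obese+NAM hearts. Erythroid markers (5 of 5) summed to 724 to 1596, 1662 to 4020 and 487 to 2302 TPM, and atrial markers (6 of 6, Bmp10 at 0 in some samples) to 99.8 to 169, 121 to 588 and 176 to 1122 TPM. The part of these cell types and of the mitochondrial share in the changes above was not tested.

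The ratio of Adcy5 to Adcy6 was above 1 in all 12 samples. It was 1.51 ± 0.139 (SD, n = 4) in lean, 1.45 ± 0.115 (n = 4) in obese and 1.38 ± 0.323 (n = 4) in obese+NAM hearts. Obese+NAM replicates 1 and 2 were at 1.68 and 1.64, and replicates 3 and 4 at 1.19 and 1.03, so this group spread the widest. The exact permutation test gave p = 0.543 for obese against lean, p = 0.629 for obese+NAM against obese and 0.400 for obese+NAM against lean (adjusted over 12 tests 0.724, 0.754 and 0.686). Gnas set against both cyclases showed another order: the ratio of Gnas to the sum of Adcy5 and Adcy6 was 5.53 to 7.13 in lean, 5.86 to 7.45 in obese and 4.38 to 5.35 in obese+NAM hearts. Every obese+NAM sample was below the other 8. The ratio of Gnas to Adra1a plus Adra1b was 12.4 to 17.8 in lean and 15.3 to 18.7 in obese hearts. In obese+NAM hearts it was 11.4 to 13.8, below every obese sample but overlapping with the lean ones. The ratio of Gnas to both cyclases was chosen after its values were seen, and neither ratio was tested.

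**Figure D4:**
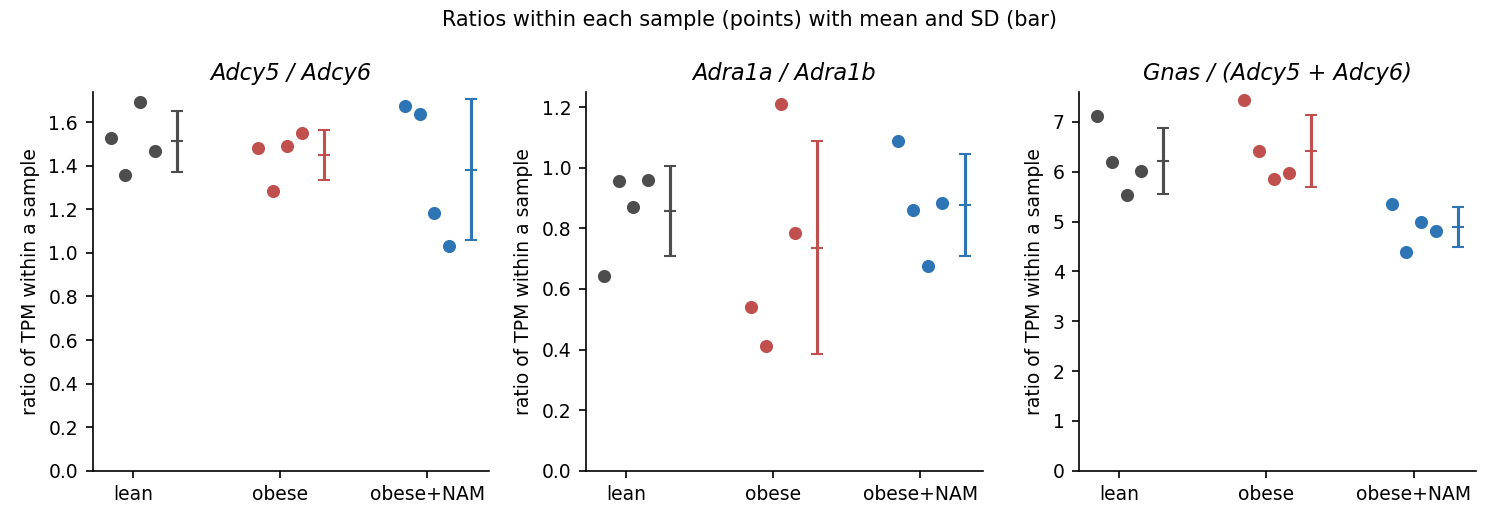
Ratios of TPM within each sample (points, 4 per group) with group mean and SD (bars) for Adcy5 to Adcy6, Adra1a to Adra1b and Gnas to the sum of Adcy5 and Adcy6. The first ratio is 1.51, 1.45 and 1.38 on average in lean, obese and obese+NAM hearts; the last lies at 4.38 to 5.35 in obese+NAM hearts and at 5.53 to 7.45 in the other 8 samples.

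The other cyclases were low. Adcy4, an isoform of blood vessels, was the only other isoform to pass the filter, at 1.65 to 2.32 TPM in lean, 1.15 to 2.06 in obese and 1.11 to 2.11 in obese+NAM hearts, and was not called. Adcy1, a calmodulin-stimulated isoform, was at 0.835 to 1.64 TPM in lean, 0.229 to 0.756 in obese and 0.368 to 0.840 in obese+NAM hearts. In the fit without the filter Adcy1 was lower in obese than in lean hearts by -0.56 on the log2 scale (SE 0.15, limma adjusted p = 0.0451, a fit in which 7.9% of all genes were called lower), and after rescaling by -0.46 (adjusted p = 0.230). Adcy9 was at 0.316 to 0.524 TPM in obese and 0.562 to 0.764 in obese+NAM hearts, without overlap as deposited (adjusted p = 0.0664 without the filter) and with overlap after rescaling. Of the genes that passed the filter, 28% were higher in every obese+NAM than in every obese sample as deposited. Adcy2, Adcy3, Adcy7, Adcy8 and Adcy10 stayed below 1 TPM in every sample.

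The other genes of the pathway were read from 10 lists by role, 116 genes of which 112 were in the table and 79 passed the filter. As deposited 17 of the 79 were called lower and 0 higher in obese against lean hearts, beside 16.5% of all genes called lower. Against obese, the obese+NAM hearts had 28 called higher and 0 lower, beside 28.8% of all genes called higher. Obese+NAM against lean hearts gave 1 called lower (Fxyd1), where 1.83% of all genes were called in either direction. After rescaling the calls were 1 lower (Fxyd1), 0, and 2 lower (Fxyd1 and Tnni3), against 1.34%, 0.713% and 2.36% of all genes. The shares over all genes also stand beside the counts of each list below. The median log2 change of the 79 was -0.26, 0.26 and 0.05 as deposited and -0.04, -0.04 and -0.01 rescaled, close to the medians of all genes tested. With each sample left out in turn, 12 of the 17 and 20 of the 28 were called in all 12 fits, and of the other 8 of these 28, 7 lost their call in some fit and 1 (Slc18a2) fell below the filter in some.

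**Figure D5:**
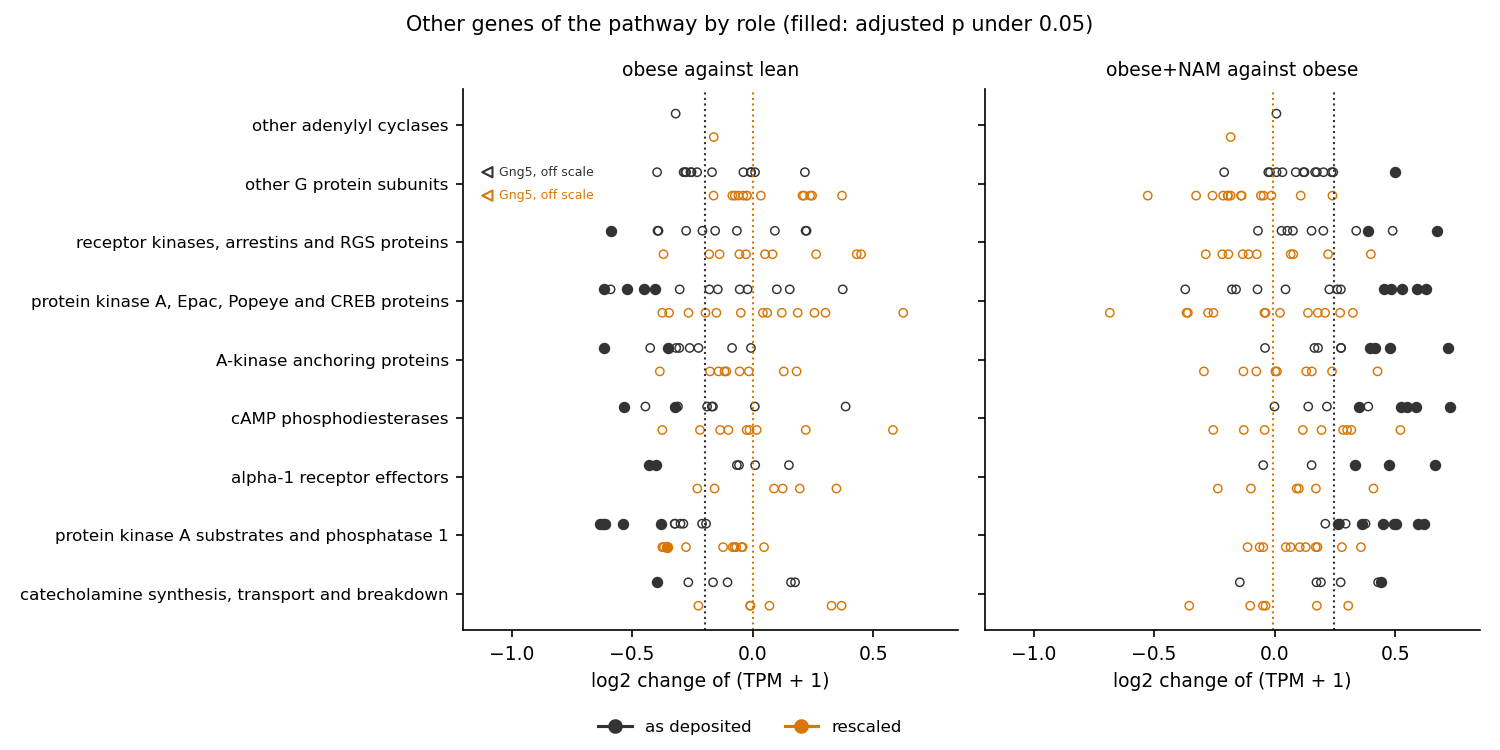
Log2 change of (TPM + 1) of the 79 pathway genes tested, by role, for obese against lean and obese+NAM against obese, as deposited (black) and rescaled (orange); filled points passed an adjusted p of 0.05, dotted lines mark the median of all genes, and triangles mark Gng5, which lies beyond the axis at -6.12 as deposited and -5.98 rescaled. The 17 filled black points on the left are all below 0, the 28 on the right are all above 0, and the only filled orange point is Fxyd1.

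Upstream of the kinase, the other G protein subunits gave 0 calls of 14 in obese against lean and 1 of 14 in obese+NAM against obese hearts. Of all genes, 16.5% were called lower in the first comparison and 28.8% higher in the second. The 1 call was Gnb5, which partners RGS proteins (log2 change 0.50, limma adjusted p = 0.0161, ended without obese+NAM replicate 1). Its rescaled change was 0.24 (adjusted p = 0.371). The inhibitory subunits Gnai2 (36.1, 29.4 and 33.5 TPM on average in lean, obese and obese+NAM hearts) and Gnai3 (16.6, 12.4 and 11.8 TPM) were not called. Gng5 was listed at 546, 132, 333 and 138 TPM in lean hearts. In obese hearts it was listed at 143, 0, 0 and 0, and in obese+NAM hearts at 0, 228, 0 and 0 TPM. Such zeros can be failed estimates, and its change of -6.12 was not called (adjusted p = 0.0814).

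Of 10 kinases, arrestins and RGS proteins that end receptor signals, 1 was called lower in obese against lean hearts (Rgs6). In obese+NAM against obese hearts 2 were called higher (Rgs5 and Rgs6). Of all genes tested, 16.5% were called lower and 28.8% higher in these comparisons. Rgs6 fell in obese against lean hearts, from 7.48 ± 1.40 to 4.62 ± 0.674 TPM (SD, n = 4 each; log2 change -0.59, limma adjusted p = 0.0117). It rose to 7.96 ± 1.06 TPM in obese+NAM hearts (0.67, adjusted p = 0.00495). After rescaling the 2 changes of Rgs6 were -0.37 (limma adjusted p = 0.129) and 0.40 (adjusted p = 0.127). Rgs5, a pericyte gene, also rose in obese+NAM against obese hearts (0.39, adjusted p = 0.0428), a call that ended in 9 of 12 fits with 1 sample left out. Its rescaled change was 0.07 (limma adjusted p = 0.805). The receptor kinases Grk2 (6.52, 5.22 and 6.16 TPM in lean, obese and obese+NAM hearts) and Grk5 (3.88, 4.60 and 4.86 TPM) and the arrestin Arrb1 (1.35, 1.25 and 1.36 TPM) were not called.

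Among 13 genes of protein kinase A, Epac, Popeye and CREB proteins, 4 fell in obese against lean hearts (Prkaca, Prkar1a, Prkar2a and Pkia) and 5 rose in obese+NAM against obese hearts (these 4 and Prkacb). Of all genes tested, 16.5% were called lower and 28.8% higher in the same comparisons. Prkar1a, a regulatory subunit, was at 111, 100, 96.0 and 96.3 TPM in lean, 70.9, 75.3, 65.5 and 68.0 in obese, and 113, 94.5, 97.5 and 101 in obese+NAM hearts. Every obese sample was below the other 8. The log2 change was -0.52 for obese against lean (SE 0.08, limma adjusted p = 0.00261) and 0.53 for obese+NAM against obese (SE 0.08, adjusted p = 0.00292), and after rescaling -0.27 (adjusted p = 0.0580) and 0.21 (adjusted p = 0.132). Without obese replicate 1 the rescaled difference of obese from lean was -0.30 (adjusted p = 0.0393). Prkaca, a catalytic subunit, went from 53.5 ± 4.72 to 38.9 ± 4.11 and 53.6 ± 2.51 TPM (SD, n = 4 each), with log2 changes of -0.45 (adjusted p = 0.00738) and 0.45 (adjusted p = 0.00535), and -0.20 and 0.14 rescaled. The fall of Pkia, a kinase inhibitor, ended in 6 of 12 fits with 1 sample left out.

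A-kinase anchoring proteins, which hold the kinase near its substrates, gave 2 lower of 9 in obese against lean (Akap6 and Akap11) and 4 higher in obese+NAM against obese hearts (Akap6, Akap9, Akap11 and Akap13). Over all genes 16.5% were called lower and 28.8% higher there. Akap6 went from 12.1 ± 0.984 to 7.60 ± 1.40 and 13.1 ± 1.76 TPM (SD, n = 4 each; log2 changes -0.62 and 0.72, limma adjusted p = 0.00698 and 0.00359; rescaled -0.39 and 0.43, adjusted p = 0.0770 and 0.0756). Both rescaled values passed without obese replicate 2 (adjusted p = 0.0352 and 0.0256). The fall of Akap11 ended in 7 of 12 fits with 1 sample left out.

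Of 9 phosphodiesterases, which break down cyclic AMP, Pde4a and Pde8a fell in obese against lean hearts, where 16.5% of all genes were called lower. Pde3a, Pde4a, Pde4d, Pde7b and Pde8a rose in obese+NAM against obese hearts, where 28.8% of all genes were called higher. Pde4a went from 2.39 ± 0.345 to 1.34 ± 0.266 and 2.35 ± 0.206 TPM (SD, n = 4 each; log2 changes -0.54 and 0.52, limma adjusted p = 0.00797 and 0.00661; rescaled -0.37 and 0.32, adjusted p = 0.119 and 0.195). Without obese replicate 1 the rescaled difference of obese from lean had an adjusted p of 0.0487. Pde4d, the isoform tied to the ryanodine receptor, rose from 3.69 ± 0.725 to 5.83 ± 0.692 TPM (0.55, adjusted p = 0.00681). Pde3a, the main isoform at the calcium store, rose from 6.0 ± 0.547 to 9.73 ± 2.61 TPM (0.59, adjusted p = 0.0146). Neither was called after rescaling (Pde4d 0.28, limma adjusted p = 0.307, and Pde3a 0.30, adjusted p = 0.261). With 1 sample left out, the fall of Pde8a ended in 9 fits of 12, its rise in 3 and the rise of Pde7b in 5.

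Downstream of alpha-1 receptors 6 genes were tested. Plcb4, a phospholipase C, and Prkce, protein kinase C epsilon, fell in obese against lean hearts, where 16.5% of all genes were called lower. These and Itpr1 rose in obese+NAM against obese hearts, where 28.8% of all genes were called higher. Plcb4 went from 16.3 ± 0.487 to 12.1 ± 0.690 and 17.2 ± 1.64 TPM (SD, n = 4 each; log2 changes -0.40 and 0.47, limma adjusted p = 0.00797 and 0.00369; rescaled -0.16 and 0.17, adjusted p = 0.225 and 0.211). The fall of Prkce ended in 6 and the rise of Itpr1 in 7 of 12 fits with 1 sample left out.

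Of 11 substrates of protein kinase A and subunits of phosphatase 1, 5 fell in obese against lean hearts (Pln, Ryr2, Tnni3, Mybpc3 and Fxyd1), beside 16.5% of all genes. In obese+NAM against obese hearts 7 rose (Pln, Ryr2, Cacna1c, Tnni3, Mybpc3, Ppp1cb and Ppp1cc), beside 28.8% of all genes. Pln, phospholamban, the brake on the calcium pump, went from 1041 ± 40.8 to 799 ± 53.2 and 1132 ± 84.0 TPM (SD, n = 4 each; log2 changes -0.38 and 0.50, limma adjusted p = 0.00525 and 0.00292; rescaled -0.12 and 0.18, adjusted p = 0.276 and 0.142). Tnni3, cardiac troponin I, fell by 0.54 on the log2 scale (adjusted p = 0.00246). After rescaling Tnni3 changed by -0.28 (limma adjusted p = 0.110). Its rise of 0.26 in obese+NAM hearts (adjusted p = 0.0307) ended in 5 of 12 fits with 1 sample left out and was -0.06 after rescaling. That of Ppp1cc ended without obese+NAM replicate 1.

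Fxyd1, phospholemman, which regulates the sodium pump, was the 1 pathway gene called lower than in lean hearts in both obese and obese+NAM hearts as deposited. Its TPM were 262, 220, 233 and 223 in lean, 147, 163, 144 and 157 in obese, and 181, 166, 175 and 187 in obese+NAM hearts. The 3 groups did not overlap, with obese+NAM samples between the others. As deposited the log2 change was -0.61 for obese against lean (SE 0.08, limma adjusted p = 0.00102) and -0.40 for obese+NAM against lean (adjusted p = 0.0202, ended without lean replicate 3 or obese+NAM replicate 3). After rescaling it was -0.35 (adjusted p = 0.0151, and 0.0515 without lean replicate 3) and -0.47 (adjusted p = 0.00208, called in all 12 fits with 1 sample left out). Tnni3 was likewise lower than in every lean sample in all obese and obese+NAM samples as deposited, without a call in obese+NAM against lean hearts (-0.27, adjusted p = 0.12). It was called lower in obese+NAM than in lean hearts after rescaling (-0.34, adjusted p = 0.0480), a call that ended in 10 of the 12 fits.

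Of 6 genes of catecholamine synthesis, transport and breakdown, 1 was called lower in obese against lean hearts (Ddc). In obese+NAM against obese hearts 1 was called higher (Slc18a2). Of all genes tested, 16.5% were called lower and 28.8% higher in these comparisons. Ddc, which makes dopamine, changed by -0.40 (limma adjusted p = 0.0292), a call that ended in 4 of 12 fits with 1 sample left out. Slc18a2, the vesicular monoamine transporter, was below 1 TPM in 8 samples and passed the filter through 3 obese+NAM samples and lean replicate 4. It was at 0.439 to 0.564 TPM in obese and 0.929 to 1.14 TPM in obese+NAM hearts (0.44, adjusted p = 0.0250), a difference the filter favours. Without any of those 4 samples it was not tested, and in the other 8 fits with 1 sample left out the highest adjusted p was 0.0477. After rescaling Ddc was at -0.23 (adjusted p = 0.307) and Slc18a2 at 0.30 (adjusted p = 0.281). Nerve and Schwann cell markers (7 of 8 in the table, S100b and Ngfr at 0 in some samples) summed to 2.99 to 3.98 TPM in lean, 3.26 to 9.02 in obese and 3.52 to 5.48 in obese+NAM hearts.

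For each of the 5 genes tested, the genes with the closest rescaled profile over the 12 samples were found by the root mean square difference of mean-centred log2(TPM + 1). Closest to Adra1a were Pbrm1 (0.111), Zfp871 and Dpcd, and closest to Adra1b were Clptm1 (0.0743), Nfia and Psmd1. The nearest to Adcy5 were Ube2g1 (0.0785), Lancl1 and Eif4enif1, and to Adcy6 Xpo5 (0.0712), Slc30a9 and Tpp2. Gnas stood nearest to Kcmf1 (0.0707), Blvrb and LOC100912599. These differences stand beside profile SDs of 0.25 for Adra1a, 0.16 for Adra1b, 0.13 for Adcy5, 0.14 for Adcy6 and 0.15 for Gnas. They describe these 12 samples and carry no test.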

How the data were processed

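The authors deposited 1 table of TPM for 12 samples. The deposited columns of the lean and obese samples are TPM throughout, and those of the obese+NAM samples (recorded as other values) are TPM with a text mark, not a number, for 498 genes; these genes were left out, and 17104 remained. Per the submitters' processing notes, the genome build was Rnor_6.0 and limma was used, with the aligner and counting tool not given in the sources used here. Per the labels' protocols, libraries were directional. No sample column was without a label (0), and of the 66 pairs of samples 0 held identical values.

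Members, gene lists and tests were chosen with earlier results of these data known. Samples were grouped by their titles. The values were analysed as log2(TPM + 1), with limma 3.58.1 (statmod 1.5.0, R 4.3.3) on the 10526 genes that reached 1 TPM in 4 or more samples: 3 group means, 9 residual degrees of freedom, empirical Bayes with trend and robust settings, two-sided, Benjamini-Hochberg adjustment over all genes kept. The fit was tested on simulated data. Rescaling divided each sample by its median ratio to the geometric mean over those genes. Where a symbol had more than 1 entry, the one with the highest mean was used. Genes named beside the members were those fixed by name, up to 2 called genes with the smallest p per list and comparison as deposited and 1 after rescaling, and the 3 nearest profiles per member; others were named because their count was small, after their values were seen. Ratios were compared by exact permutation of the mean log2 ratio, adjusted over 12 tests; those of Adrb1 used TPM + 1, since it is listed at 0 in 2 samples. Another planned gene and the 3 ratio tests that need it are not reported here. Alternatives were other pseudocounts (0.1 and 5), filters (none, or a mean of 5 TPM), scalings (median of ratios, quantile, without mitochondrially encoded genes), moderation without trend, 2 groups only, a replicate block and each sample left out. The fit without a filter after rescaling was added after seeing the data.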

Additional observations from a re-analysis of the deposited data

Results flagged for a closer look

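The other Gnas entry (ENSRNOG00000025889.5) had 1 sample far from the rest of its group. Obese+NAM replicate 1 was at 0.115 TPM while the other 3 obese+NAM samples were at 0.450 to 0.471 TPM, a gap of 0.942 of the group's range, above Dixon's 95% limit for 4 samples. This was 1 of 27 groups examined, and chance alone marks about 1 in 20. The level is below 1 TPM in all 12 samples. The range of this entry and its difference between obese+NAM and obese hearts (log2 change 0.04 without the filter, -0.04 rescaled, neither called) include that sample.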

How the results depend on the processing

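Of 534 alternative values for the 5 genes tested, 493 kept their direction and their side of the threshold. The rises of Adra1a, Adcy5 and Adcy6 in obese+NAM against obese hearts kept their calls except under rescaling, quantile normalization (limma adjusted p = 0.201, 0.445 and 0.216) and TPM without mitochondrially encoded genes (0.120, 0.186 and 0.0870). For obese against lean, Adcy5 also lost its call under quantile normalization (adjusted p = 0.735) and without mitochondrially encoded genes (0.882). All 3 scalings shift the expression values of each sample. Which scaling is right was not tested.

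Genes called for obese against lean numbered 1770 as deposited, 141 rescaled, 126 under quantile normalization and 62 without mitochondrially encoded genes; for obese+NAM against obese 3077, 75, 66 and 208; for obese+NAM against lean 193 as deposited, 569 without mitochondrially encoded genes and 124 without the filter. With 1 sample left out the counts ranged from 1006 to 1966, 1867 to 3640 and 69 to 188, and rescaled from 27 to 224, 10 to 156 and 105 to 291.

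Directions turned without mitochondrially encoded genes for obese against lean in Adra1b (log2 change 0.019), Adcy6 (0.0056) and Gnas (0.018), and for obese+NAM against obese in Gnas (-0.069). Gnas in that comparison was -0.19 rescaled and -0.077 under quantile normalization, the other Gnas entry was -0.043 rescaled, and Tnni3 was -0.063 rescaled. With 1 sample left out the rescaled value ranged from -0.092 to 0.079 for Adra1b and from -0.093 to 0.042 for Gnas in obese against lean, from -0.034 to 0.12 for Adcy5 in obese+NAM against lean, and from -0.10 to 0.011 for Tnni3 in obese+NAM against obese. The cause was not tested.

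With 1 sample left out, the difference in mean log2 ratio of Adra1a to Adra1b ranged from -0.10 to 0.15 for obese+NAM against lean, where it was below 0 without lean replicate 1 or obese+NAM replicate 1. That of Adcy5 to Adcy6 ranged from -0.20 to 0.033 for obese+NAM against obese (above 0 without obese+NAM replicate 4). That of Adrb1 to Gnas ranged from -0.12 to 0.052 for obese+NAM against lean (above 0 without lean replicate 3 or obese+NAM replicate 1), a value on TPM + 1 that mostly mirrors Gnas and says little of Adrb1. No ratio passed an adjusted p of 0.05 in these.

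Replicate numbers gave no sign of pairing in the values, and the sample titles do not say whether equal numbers belong together. The 12 same-numbered pairs had correlations of -0.050 to 0.074 in their deviations from group means. The 36 other pairs between groups had -0.093 to 0.075. With the replicate block, 1425, 2561 and 132 genes were called as deposited and 113, 29 and 185 rescaled. The block ended the Adcy5 call for obese against lean (adjusted p = 0.0627) and called Gnas there (0.0457).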
